A study of Rattus with 4 samples.

Results

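A group of 10 genes of SMAD signalling were followed in RNA precipitated with an antibody to the nuclear RNA-binding protein NONO and in the input RNA beside it. They are the transducers Smad1, Smad2, Smad3, Smad4 and Smad5, the inhibitory Smad6 and Smad7, the ubiquitin ligase genes Smurf1 and Smurf2, and the corepressor gene Ski. These 10 of the 13731 listed genes were found by symbol, and each is listed as protein coding. The group was chosen on its reads in the NONO precipitate against the input in these same libraries, so differences between the groups are given for its members as descriptions, with no test.

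SMAD proteins carry signals of the TGF-β superfamily from receptors at the cell surface to the nucleus. Receptors for bone morphogenetic proteins (BMPs) phosphorylate Smad1 and Smad5, receptors for TGF-β and activin phosphorylate Smad2 and Smad3, and either kind then joins the shared partner Smad4 and binds DNA. Smad6 and Smad7 block the receptors and are themselves induced by the pathway, the SMURF ligases mark SMADs and receptors for degradation, and Ski represses SMAD target genes in the nucleus. In cardiac fibroblasts this pathway is known for driving matrix production and the change to myofibroblasts.

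The data are RNA immunoprecipitation sequencing (RIP-seq) of cultured rat heart cells, with 2 input libraries and 2 libraries from the anti-NONO antibody (NONO IP). The labels describe the input cells as given an empty vector and no antibody, and the NONO IP cells as given siRNA against NONO, so that precipitation and knockdown cannot be told apart. The growth protocol names a rat cardiac fibroblast line, while the sample titles give H9C2, which is known as a rat heart myoblast line. No library with a control antibody was used here, and nothing in the labels says that the replicates came from separate cultures, so the spread behind each p-value is only that between these libraries and may be technical.

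Gene reads summed to between 238776 and 249548 in the inputs and to between 264059 and 279410 in the NONO IP. Levels are CPM, counts scaled to a common library size with edgeR's TMM method, on which 3 reads stand for 15.5 to 15.9 CPM in the inputs and 10.2 to 10.7 CPM in the NONO IP. Nono itself was counted at 21 and 9 reads in the inputs against 3 and 3 after precipitation. Reads were seen for 10 of 12 listed fibroblast markers, summing to 18661 to 19483 per input library and 19366 to 20403 per NONO IP library, and none were listed for Lum and Fap. Most of these reads were of collagen genes, in the inputs Col1a1 (10575 and 10072), Col1a2 (5134 and 4925) and Col3a1 (3318 and 3221). Input reads were few for Pdgfra (9 and 11), Thy1 (6 and 17), Tcf21 (2 and 3) and Dcn (2 and 2). Of 11 skeletal myoblast markers 3 had reads, with sums of 10 and 11 (inputs) and 5 and 9 (NONO IP), and none were listed for Myod1, Myf5, Myog and Pax7. Summed reads per library were 51 to 73 in the inputs and 96 to 106 in the NONO IP for 12 cardiomyocyte markers, 928 to 965 and 616 to 649 for 10 smooth muscle markers, 64 to 80 and 60 to 68 for 9 endothelial markers, and 14 and 14 against 4 and 1 for 8 macrophage markers. Only 4 of the 9 endothelial markers had reads, and Pecam1, Cdh5, Kdr, Tie1 and Emcn were absent. What part the cell types listed here have in the results below was not tested. In bulk RNA of this kind, fewer cells of a type and less RNA per cell cannot be told apart.

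In read numbers joined by "against", the 2 inputs come first and the 2 NONO IP libraries second. Together the 10 genes held 521 input reads and 2544 NONO IP reads. That was 0.107% ± 0.00536 of gene reads in the inputs and 0.467% ± 0.0448 in the NONO IP (SD, n = 2). Smad7 held the most reads in each library. Smad1 made up 2.88% ± 0.326 of the members' input reads and 17.3% ± 0.0394 of their NONO IP reads, and ranked 6 and 7 by reads among the members in the inputs and 2 in both NONO IP libraries.

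Of the 10 genes, 9 passed the count filter of the fit across all genes, and Smad4 did not. Smad1, Smad2, Smad3 and Smad5 passed through their NONO IP reads alone, since neither input reached the minimum of 10 reads at the median library size for them. Fold changes of the members from this fit over 2920 genes are given with their SE and without a call. In TMM-scaled CPM, 8 of the 9 were higher in each NONO IP library than in either input, as were 40.6% of all genes tested. Since the same contrast chose the members, nothing is read from that count.

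**Figure D1:**
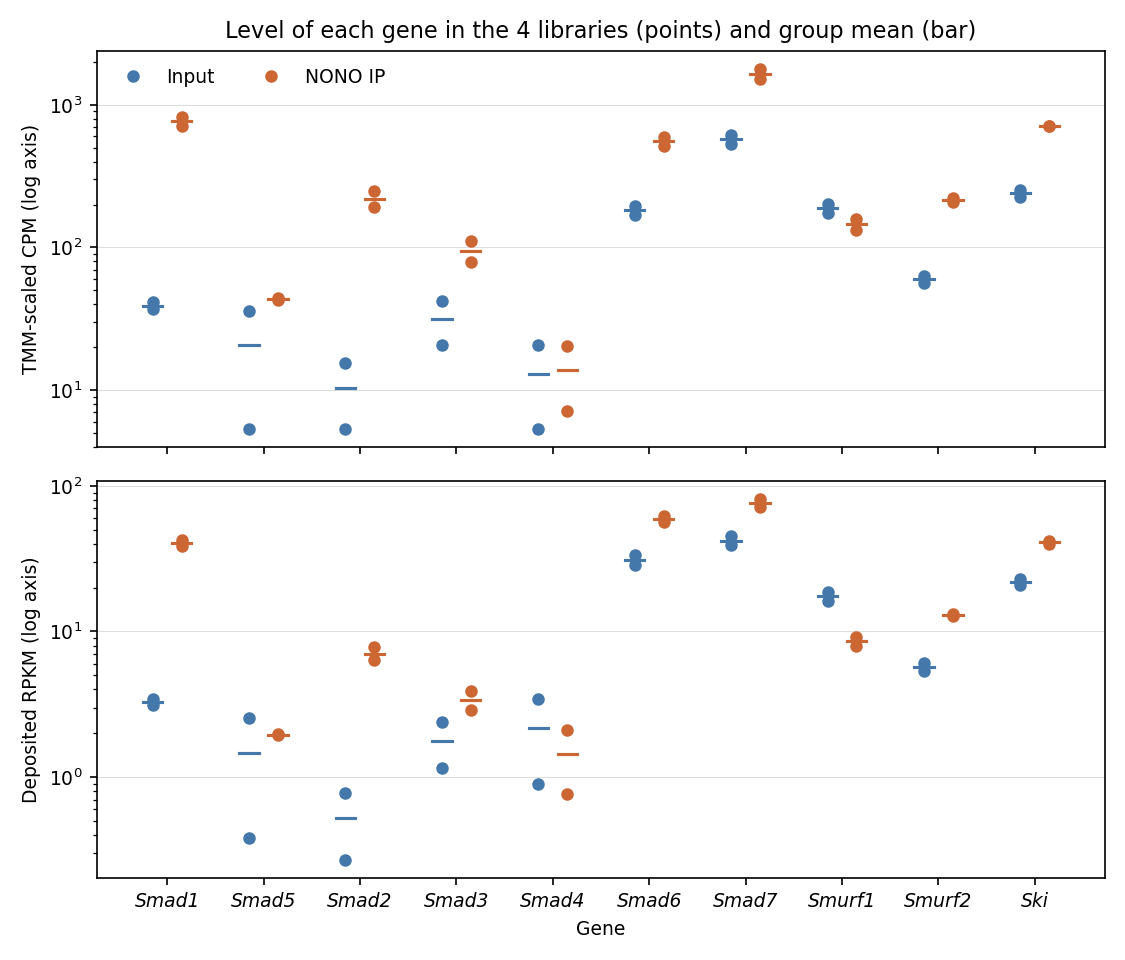
Level of each gene in each library (points) with the group mean (bar), as TMM-scaled CPM above and as deposited RPKM below, both on log axes. Smad1 and Smad2 show the widest gaps between groups, Smad4 overlaps, and Smurf1 lies lower in the NONO IP on both scales.

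The 2 receptor-regulated SMADs of the BMP branch stood far apart. Smad1, on chromosome 19, was counted at 8 and 7 reads without the antibody and at 242 and 199 with it. This was 39.1 ± 2.95 CPM against 765 ± 76.7 CPM (SD, n = 2), 19.6-fold higher, with an exact conditional 95% interval of the count ratio from 11.7 to 35.3 that covers counting error only. The groups do not overlap, and the library values were 41.2 and 37.0 CPM against 819 and 711 CPM. Smad5, on chromosome 17, had only 7 and 1 reads in the input libraries beside 13 and 12 in the precipitated ones. Its ratio was 2.08 with an interval from 0.910 to 5.34, and its fitted log2 fold change was 1.04 (SE 0.56). The inputs of Smad5 differ from each other by more than the higher input differs from the NONO IP, at 36.1 and 5.29 CPM against 44.0 and 42.9 CPM. Smad9, the other SMAD of this branch and not a member, had 2 and 0 reads in either group, below what this depth can compare.

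The TGF-β and activin branch also held a large and a smaller difference. Smad2, on chromosome 18, went from 3 and 1 reads to 73 and 54, or 15.5 and 5.29 CPM against 247 and 193 CPM. The count ratio was 21.1, with a wide counting interval from 8.06 to 78.8 because only 4 input reads stand behind it. Smad3, on chromosome 8, went from 4 and 8 reads to 33 and 22, at 31.5 ± 15.4 CPM against 95.2 ± 23.4 CPM (SD, n = 2). The Smad3 ratio was 3.05 (interval 1.61 to 6.26) and its groups do not overlap. Smad4, the shared partner of both branches, lies on chromosome 18 and was barely sampled, with 4 and 1 reads against 6 and 2. Its ratio of 1.07 had an interval from 0.307 to 4.14, so a difference of several-fold in either direction was not detectable at this depth, and its groups overlap.

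Both inhibitory SMADs were well counted and moved alike. Smad6, on chromosome 8, was counted at 33 and 37 reads against 176 and 145, or 183 ± 18.2 CPM against 557 ± 55.1 CPM (SD, n = 2). Smad7, on chromosome 18, was counted at 104 and 116 reads against 529 and 422, or 575 ± 55.2 CPM against 1649 ± 201 CPM (SD, n = 2). The count ratios were 3.05 for Smad6 (interval 2.35 to 4.01) and 2.88 for Smad7 (interval 2.48 to 3.35). Their fitted log2 fold changes were 1.61 (SE 0.18) and 1.52 (SE 0.12), and in both genes each NONO IP library lies above each input.

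The SMURF ligases differed from each other. Smurf2, on chromosome 10, had 11 and 12 reads against 66 and 58, at 60.1 ± 4.83 CPM against 215 ± 11.5 CPM (SD, n = 2), a ratio of 3.59 with an interval from 2.29 to 5.87. Smurf1, on chromosome 12, had 34 and 38 reads against 47 and 37. In CPM these were 175 and 201 against 159 and 132, so both NONO IP libraries lie below both inputs although their raw reads do not. The Smurf1 ratio was 0.777 with an interval from 0.560 to 1.08, which includes 1 but covers counting error only and is not a test. The corepressor gene Ski, on chromosome 5, had 49 and 43 reads against 209 and 199, or 240 ± 17.6 CPM against 709 ± 2.29 CPM (SD, n = 2). Its ratio was 2.95 (interval 2.35 to 3.74) and its fitted log2 fold change 1.56 (SE 0.15). Skil, the close relative of Ski that is not a member, had 16 and 23 reads against 27 and 26, with a log2 fold change of −0.14 (SE 0.31) that did not pass and that was above 0 with library totals (0.29), with no count filter (0.07) and without Input replicate 2 (0.10).

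The size of each difference depends on how the libraries are scaled. The deposited RPKM values (reads scaled by gene length and by a library total) rest on a total that, relative to the first input, was 0.965 in the second input and 2.45 and 2.22 in the NONO IP. RPKM values of the NONO IP are therefore lower beside the inputs than CPM values are. In RPKM, Smad1 stood at 3.43 and 3.11 in the inputs and at 42.3 and 38.4 in the NONO IP, 12.3-fold higher. Smad2 was 13.4-fold higher in RPKM, Smurf2 2.26-fold, Smad6 1.92-fold, Smad3 1.90-fold, Ski 1.87-fold and Smad7 1.81-fold. These 7 have both NONO IP libraries above both inputs in RPKM, as do 25.6% of all genes tested, while the 2 groups of Smad5 overlap. Smurf1 went from 16.2 and 18.8 RPKM to 9.15 and 7.94 RPKM, 2.05-fold lower, with both NONO IP libraries below both inputs as for 56.0% of all genes tested.

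**Figure D2:**
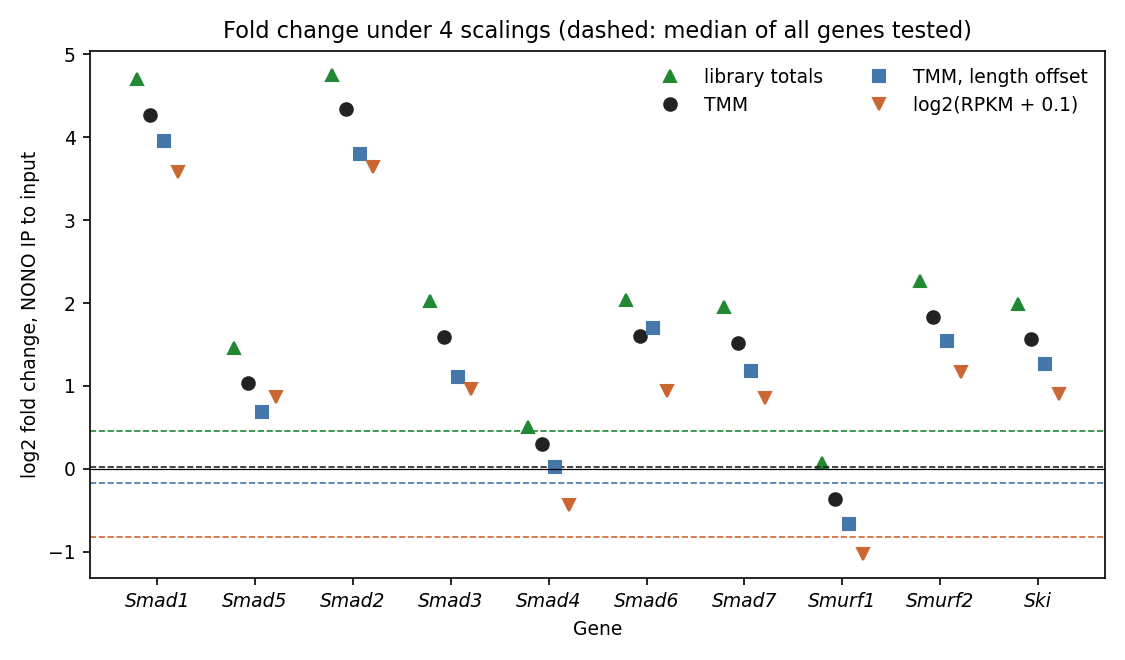
Fitted log2 fold change of each gene under library totals, TMM, TMM with an offset for gene length and log2(RPKM + 0.1); dashed lines give the median of all genes tested in the same colour. Except for its RPKM mark, Smad4 is drawn from fits without a count filter, while the dashed lines are from the filtered fits. Its TMM mark (0.30) lies at the median of all genes in the fit without a count filter (0.30). All 4 marks of Smad1, Smad2, Smad3, Smad5, Smad6, Smad7, Smurf2 and Ski lie above 0, Smad4 lies on both sides of it, and Smurf1 is above 0 only with library totals.

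Under the 13 alternatives Smad1 ranged from 3.28 to 4.70 on the log2 scale and Smad2 from 2.41 to 5.23. Smad6 ranged from 0.92 to 2.04, Smad7 from 0.84 to 1.95, Smurf2 from 1.06 to 2.26 and Ski from 0.87 to 1.99, and Smad3, over 12 alternatives, from 0.68 to 2.13. Each of these 7 genes lay above the median of all genes tested under every alternative in which it was fitted. Smurf1 was at 0.07 with library totals and between −1.03 and −0.15 elsewhere, and was below the median gene in all 12 of its alternatives. Single input libraries decided Smad5, which was at 2.90 without Input replicate 1 and at 0.21 without Input replicate 2. The sign of Smad4 also turned with single libraries, from 1.43 without Input replicate 1 to −0.69 without NONO IP replicate 1, in the fit without a count filter.

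Per length, the order of the 10 genes and their relatives Smad9 and Skil in the inputs ran from Smad7 (mean of 42.1 RPKM) through Smad6 (31.1), Ski (21.9) and Smurf1 (17.5) to Skil (6.93) and Smurf2 (5.70). For each of these first 4 the range of the 2 inputs did not overlap that of the next gene, whereas Skil and Smurf2 overlapped. Smad1 (3.27 RPKM), Smad4 (2.16), Smad3 (1.78), Smad5 (1.46), Smad2 (0.525) and Smad9 (0.460) followed, and each overlapped its neighbour in this order. Among the 12190 coding genes, 97.4% had a lower mean input RPKM than Smad7, 67.2% a lower one than Smad1 and 28.7% a lower one than Smad2. In the NONO IP, Ski (41.0 RPKM) and Smad1 (40.4 RPKM) overlapped, behind Smad7 and Smad6 only, and 99.2% of coding genes had a lower mean than either. Smad2 reached 7.05 RPKM there, above 90.7% of coding genes, and Smurf1 at 8.54 RPKM stayed above 92.4%, close to the 92.6% it exceeded in the inputs.

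Genes with few input reads and long genes can differ from others in such a comparison, so each member was set beside all other coding genes whose input reads and relative length (count divided by RPKM) both lay within 1.5-fold of its own. These were compared by the log2 ratio of summed reads with 0.5 reads added, on the TMM scale. A member's place among them does not depend on library scaling, which shifts all genes by one amount. The place of each member is a description and not a test, since the same contrast chose the members.

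Smad1 exceeded all 744 of its like genes, at a log2 ratio of 4.25 against their median of −0.10, quartiles of −0.72 and 0.64 and highest value of 3.60. Smad2 likewise exceeded all 382 of its like genes, at 4.24 against a median of 0.24 and a highest value of 3.54. Smad7 was above all 61 of its like genes, at 1.52 against a median of −0.83 and a highest value of 1.22; with the range widened to 2-fold, 3 of 150 lay above it. Smad6 was exceeded by 1 of 156, Agfg1, at 1.60 against a median of −0.69. Ski was exceeded by 6 of 145, at 1.56 against a median of −0.52, and Smurf2 by 28 of 616, at 1.82 against a median of −0.15. The input-rich Smad6, Smad7 and Ski thus stood over 2 log2 units above the median of their like genes, a wider gap than their own ratios of about 1.5 show.

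The other members lay nearer to the body of their like genes. Smad3 had 53 of 530 above it, at 1.56 against an upper quartile of 0.88. Smad5 had 115 of 651 above it, at 1.00 against an upper quartile of 0.75. Smad4 and Smurf1 lay between the quartiles of theirs: Smad4 was at 0.04 between −1.24 and 0.24 (843 genes), and Smurf1 at −0.37 between −0.97 and 0.05 (188 genes). Smurf1 was 0.09 above the median of its like genes, of which 85 lay above it.

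**Figure D3:**
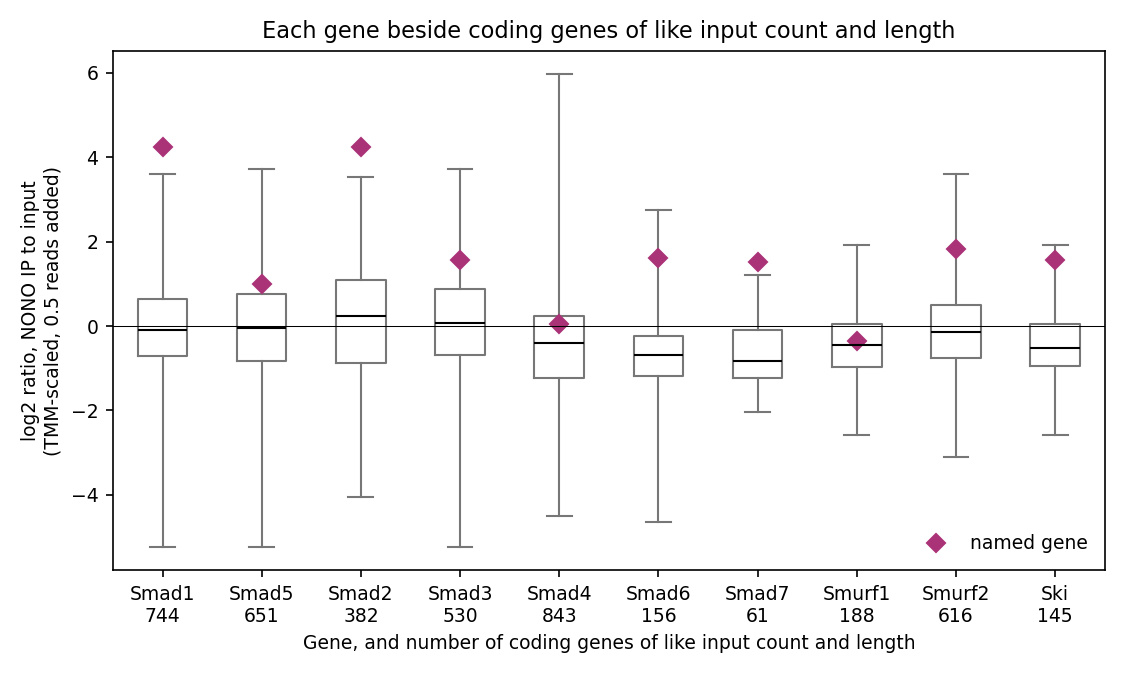
Log2 ratio of each named gene (diamond) beside the coding genes of like input count and length, whose median, quartiles and full range are drawn as a box with whiskers and whose number stands under each name. Smad1, Smad2 and Smad7 lie above the full range, and Smad4 and Smurf1 lie within the box.

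**Figure D4:**
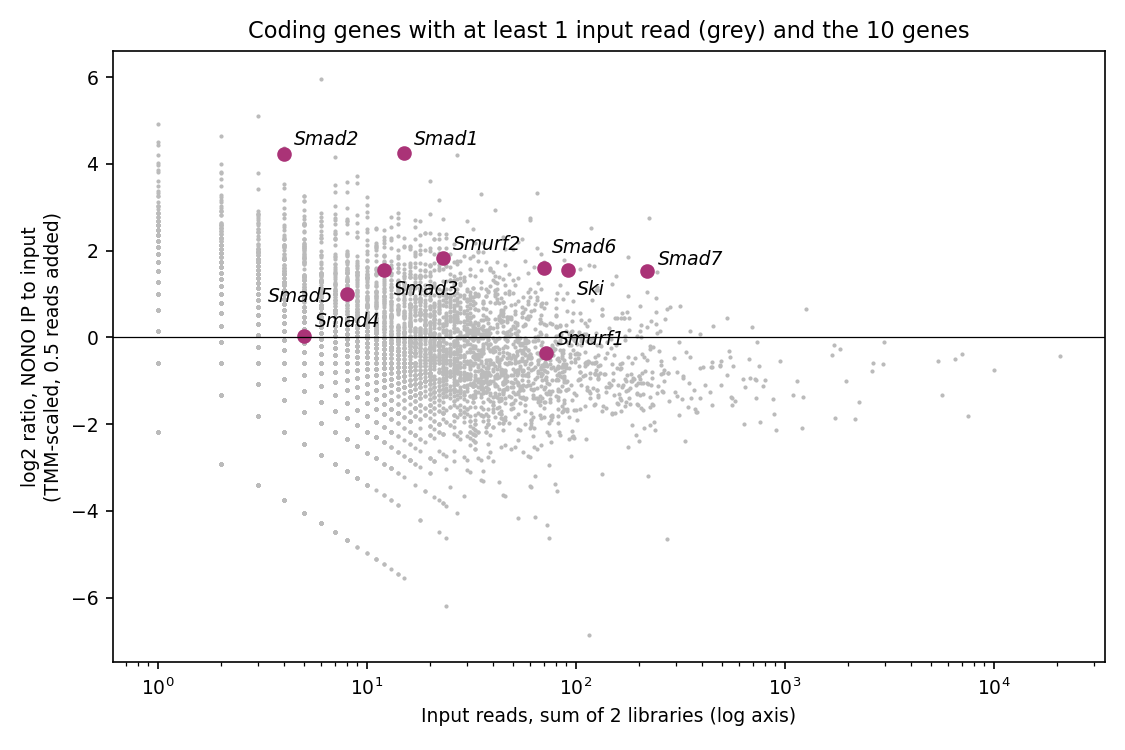
Log2 ratio of NONO IP to input against summed input reads (log axis) for coding genes with at least 1 input read (grey) and the 10 genes (coloured). Ratios of abundant genes spread less and lie mostly below 0, while Smad6, Ski and Smad7, with 70, 92 and 220 input reads, lie near 1.5.

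Relatives were also set against each other within each library, a ratio of reads that no library scaling changes; these pairs were picked after the values were seen. Smad6 reads per Smad7 read were 0.317 and 0.319 in the inputs against 0.333 and 0.344 in the NONO IP. The change of that ratio was 1.06-fold, with an exact conditional 95% interval from 0.782 to 1.45. The intervals of these pairs cover counting error only and are not tests. Smurf2 reads per Smurf1 read went from 0.324 and 0.316 to 1.40 and 1.57, a 4.60-fold change (interval 2.60 to 8.35). Thus Smurf1 had the more reads of the 2 ligases in both inputs and Smurf2 in both NONO IP libraries.

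Smad1 reads per Smad5 read were 1.14 and 7.0 in the inputs, against 18.6 and 16.6 in the NONO IP, a 9.31-fold change of the pooled ratio (interval 3.12 to 26.2). For Smad2 to Smad3 the ratio was 0.750 and 0.125 in the inputs, against 2.21 and 2.45 in the NONO IP, a 6.85-fold change (interval 1.97 to 30.5). The input ratios of these 2 pairs rest on 15 Smad1 and 8 Smad5 reads, and on 4 Smad2 and 12 Smad3 reads, and vary accordingly. Ski to Skil went from 3.06 and 1.87 to 7.74 and 7.65, a 3.26-fold change (interval 1.97 to 5.35). Within all 4 of these changed pairs the NONO IP libraries lie above both inputs and close to each other.

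The coding genes most like Smad1 over the 4 libraries, by the root mean square difference of log2 CPM, were Erf, Nufip2, LOC102557111, Dyrk1a and Hnrnpf. Erf, which encodes a transcriptional repressor of the ETS family, was nearest at 0.34 log2 units, with 10 and 10 reads against 190 and 183. Nufip2 followed at 0.53, with 12 and 10 reads against 168 and 134, and the other 3 were at 0.77 to 0.81. No nearest gene is another member, and the 5 lie on 5 chromosomes, 1, 10, 18, 11 and 4. The likeness rests on 2 groups of 2 libraries and so carries little beyond the level and the difference of each gene.

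Nearby genes did not share one pattern. By the RefSeq gene order of the GRCr8 assembly, used for names and neighbours only, the coding genes beside Smad1 are Otud4, with 4 and 5 reads against 4 and 10, and Mmaa, with 0 and 0 against 1 and 0. Beside Smad2 lies Zbtb7c, a zinc finger gene, with 2 and 2 reads against 39 and 34. Ctif, a translation factor gene beside Smad7, had 43 and 23 against 127 and 112 reads, and Smad3 and Smad6 are themselves neighbours. On the sides of Smurf1, Kpna7 had 3 and 2 against 17 and 17 reads and Trrap 28 and 25 against 20 and 27. In RefSeq a pseudogene (LOC134483053) overlaps Smad2, a lncRNA gene (LOC134482807) overlaps Smad5 and a tRNA gene (Trnaa-agc91) overlaps Smurf2. None of these is among the genes listed with counts, so their reads could not be followed. No RefSeq gene overlaps Smad1, Smad3, Smad4, Smad6, Smad7, Smurf1 or Ski. Whether reads in these members come from spliced or unspliced RNA was not analysed here.

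The rest of the pathway was read from 4 lists without the 10 genes, for 112 listed genes of which 57 were tested. Of these 57, 14 were higher and 30 lower (edgeR, adjusted p under 0.05), beside 29.8% higher and 26.9% lower of all 2920 genes tested. Thus higher genes made up 31.8% of calls. With library totals higher genes made up 52.6% of these calls, and on the RPKM scales 5.56% and 3.12%, as the median of all genes moved by 0.43, −0.63 and −0.85. Medians below are therefore also given against the median of all genes tested, which lies at 0.02 on the TMM scale. Genes whose input reads alone pass the count filter are set apart by that filter, since the rest needed NONO IP reads to pass it. The rest held 609 of the 871 higher genes. Over the 1793 genes that pass on input reads, the median was −0.57, with 262 higher and 785 lower.

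Ligands, latent binding proteins and antagonists had a median log2 fold change of −0.60. Of 13 tested, 8 fell and 5 did not pass. The 11 that passed the filter on input reads included all 8 that fell and had a median of −0.64, near the −0.57 of all such genes. Of all 1793 such genes, 785 were lower. Ltbp2, a matrix protein related to the proteins that store latent TGF-β, fell from 5100 ± 36.0 to 2530 ± 197 CPM (−1.01, SE 0.08, adjusted p = 1.1e-08). Ltbp3, which binds latent TGF-β, changed by −1.31 (SE 0.16), Fstl1 by −0.65 (SE 0.09) and the ligand Tgfb3 by −0.50 (SE 0.10, adjusted p = 0.000285). With library totals 3 of the list passed as higher and 4 as lower, and its median was −0.17. Against all genes, the list median moved from −0.62 to −0.18 with the length offset. Tgfb3 and Fstl1 did not pass with library totals (−0.07 and −0.22), nor did Tgfb3 with no count filter (−0.28). With the length offset both passed (−0.53 and −0.35).

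Receptors were split. Of 6 tested, the type I receptor genes Acvr1 and Acvr1b rose, the type II BMP receptor gene Bmpr2 and the co-receptor gene Eng fell, and Tgfbr2 and Bmpr1a did not pass. Acvr1, the type I receptor upstream of Smad1 and Smad5, had 12 and 17 reads against 54 and 56 (1.33, SE 0.29, adjusted p = 0.000807). Acvr1b, the activin receptor that acts on Smad2 and Smad3, had 2 and 3 against 21 and 29 reads (2.69, SE 0.53, adjusted p = 0.000362) and passed the count filter through its NONO IP reads. Bmpr2 had 21 and 32 against 10 and 13 reads (−1.78, SE 0.36, adjusted p = 0.000506). On the RPKM scales Acvr1 stood at 0.63 and 0.69 and Acvr1b at 1.41 and 1.99, and neither passed, and Eng did not pass with library totals (−0.42).

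Of 19 regulators of SMADs tested, 12 rose, Nedd4 and Ncor1 fell, and 5 did not pass, with a median of 1.03. Of the 12, 7 were tested only because of reads in the NONO IP, where they are high, so the list is better read from the 9 that passed the filter on input reads. Of these 9, 5 rose and 2 fell, with a median of 0.73, beside 262 higher and 785 lower of all 1793 such genes. Pmepa1, an inhibitor of SMAD2 and SMAD3 activation, is one of the 5 (0.73, SE 0.11, adjusted p = 2.93e-05). Zeb1, a zinc finger repressor that binds SMADs, had 8 and 5 reads against 70 and 47 (2.56, SE 0.36), and Ldlrad4, another inhibitor of SMAD activation, 11 and 9 against 63 and 58 (2.0, SE 0.30), and both are among the 7. The 12 became 7 without Input replicate 1, 7 with the DESeq2 Wald test and 7 with the length offset, while the RPKM scales gave 2 higher and 4 lower, and 1 higher and 3 lower. With no count filter the 44 listed regulators had a median of 0.35 and all genes one of 0.30, and on the RPKM scales the median of 33 regulators was −0.23 and −0.25 against −0.61 and −0.82 for all genes.

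As with the SMURF ligases, Nedd4 and its close relative Nedd4l differed within this list. Nedd4, a HECT ubiquitin ligase, fell, with 74 and 74 reads against 35 and 31 (−1.75, SE 0.20, adjusted p = 1.54e-06), whereas its relative Nedd4l, which targets activated SMAD2 and SMAD3, had 6 and 8 reads against 46 and 33. The Nedd4l to Nedd4 ratio changed 12.5-fold (interval 6.48 to 25.8), a pair also picked after the values were seen. Nedd4l is among the 7 regulators that passed the count filter only through NONO IP reads, where they are high. The fall of Ncor1, a nuclear corepressor gene (−0.99, SE 0.36, adjusted p = 0.0242) did not pass under 7 of its alternatives, where the adjusted p ran from 0.0546 to 0.237. Pmepa1 stood at 0.06 on both RPKM scales and did not pass there, and Ldlrad4 on both and Zeb1 on that with 0.1 added passed neither (adjusted p from 0.0516 to 0.0563).

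Most tested target genes of the pathway fell. Of 21 tested, 18 fell and 1 rose, Pmepa1, which is also on the list of regulators, and Skil and Cdkn2b did not pass, with a median of −0.90. Fn1, fibronectin, changed by −1.82 (SE 0.08, adjusted p = 6.05e-12), Thbs1, thrombospondin, by −1.33 (SE 0.07), Col1a2, a chain of type I collagen, by −0.75 (SE 0.06) and Acta2, smooth muscle actin, by −1.40 (SE 0.12). Acta2 is also one of the smooth muscle markers, whose summed reads were lower in the NONO IP as given above. All 21 passed the count filter on input reads alone. Of all 1793 such genes 785 were lower and 262 higher, with a median of −0.57. That background was not matched for abundance. Targets such as Fn1, with 3800 and 3691 input reads, are abundant, and ratios of abundant genes lay mostly below 0. Like genes above had median log2 ratios of −0.83 (Smad7, 220 input reads), −0.52 (Ski, 92), −0.45 (Smurf1, 72) and −0.69 (Smad6, 70). Whether the targets fell more than other genes of their abundance was not tested. With library totals the list median was −0.47, with 12 lower, and with the length offset its difference from all genes was −0.59 in place of −0.92.

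**Figure D5:**
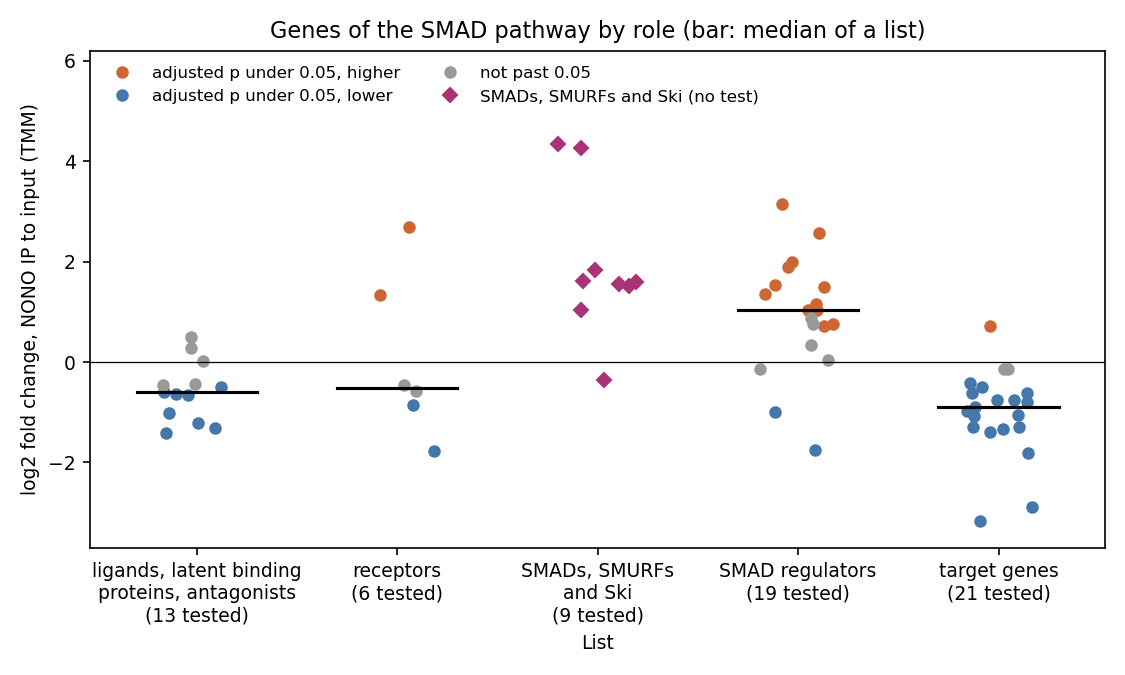
TMM log2 fold change of each tested gene of the pathway by role, coloured by its call, with the 9 tested SMAD, SMURF and Ski genes as diamonds without a test; bars give list medians. Ligands and targets lie mostly below 0 and regulators mostly above, at medians of −0.60, −0.90 and 1.03.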

How the data were processed

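The deposited gene counts of 13731 genes in 4 libraries are whole numbers. That they are unscaled was assumed from the name under which they were deposited, since the column headers name only the samples. The deposited RPKM values divide them by gene length and a library total. HISAT2, HOMER and mRatBN7.2 are named in the submitters' processing notes without a role. The counting program, its strand setting and its annotation were not given in the sources used here, so reads of overlapping or antisense genes are uncertain. Relative RPKM totals were derived from the 461 genes that reached 30 counts in all 4 libraries.

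Differences were fitted across all genes with edgeR 4.0.16 (R 4.3.3), quasi-likelihood test, TMM scaling and filterByExpr (2920 genes, lowest total 23 reads), with Benjamini-Hochberg adjustment and a threshold of 0.05; SE is the log2 fold change over the root of F. The code was tested on simulated data. Count ratios carry exact conditional 95% intervals from summed reads, which cover counting error only and leave out the spread between libraries. Reads have no molecular identifiers. Chi-square per degree of freedom between replicates was 1.12 (inputs) and 1.42 (NONO IP). The members and lists were chosen with earlier results of these data known. Named beside the members are Smad9 and Skil, up to 4 genes per list and direction by smallest adjusted p, the 5 nearest to Smad1, and neighbours. Alternatives were other scalings (DESeq2 1.42.0 size factors, library totals), count filters, the DESeq2 Wald test, limma 3.58.1 on log2-transformed RPKM with a pseudocount of 1 or 0.1 (genes at RPKM 1 or more in 2 libraries), a replicate block, a loess length offset (span 0.5) and leaving out each library. A gene that the rule names is not reported here. No sequences are shown, as none was used here.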

Additional observations from a re-analysis of the deposited data

How the results depend on the processing

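Over all genes, 871 were called higher and 786 lower. Library totals gave 1193 higher and 466 lower, and at least 50 counts in 2 libraries gave 254 and 247. The DESeq2 Wald test gave 453 and 423, log2(RPKM + 1) gave 393 and 1425, and log2(RPKM + 0.1) gave 348 and 1143. The share of calls that were higher was 52.6% with TMM, 71.9% with library totals, 64.5% with no count filter, 41.9% with the length offset, and 21.6% and 23.3% on the RPKM scales. In the 4 pathway lists, 14 were higher and 30 lower. There, library totals gave 18 lower, and the genes higher were 6 with at least 50 counts, 9 with the DESeq2 Wald test, 9 with the length offset, 2 and 1 on the RPKM scales and 9 to 13 with a library left out, the lowest without Input replicate 1. The cause of these shifts was not tested. The replicate block gave 870 higher and 806 lower genes; same-numbered libraries did not deviate together (r = 0.051 across 2920 genes, which are not independent), so the numbers are not taken to pair the libraries. Directions of single genes were followed for the members and the listed genes named with an SE only, and turned for Smad4, Smurf1 and Skil as given above. Depth limits Smad2, Smad4, Smad5 and Smad9 most, each with 8 or fewer input reads.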
